A study of Tupaia belangeri with 6 samples.

Results

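Myelin in the brain is made by oligodendrocytes, and 38 genes of that lineage were followed by name through the prefrontal cortex (PFC) of 6 tree shrews. They cover the proteins and lipids of the sheath, the receptors of precursor cells, and the transcription factors that move a cell from the first state to the second. A gene was taken where its name in the abundance tables equalled the listed symbol, and copies that the annotation names with the ending "li" were not counted as members. Of the 38 genes 32 had a row, out of 95863 loci in all, and each of the 32 had 1 gene ID.

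Oligodendrocyte precursors divide in response to platelet-derived growth factor through its receptor PDGFRA, and they carry OLIG1, OLIG2 and SOX10 from the precursor stage onwards. On leaving the cell cycle they pass through a short premyelinating stage marked by BCAS1, ENPP6 and GPR17, switch on the regulator MYRF, and then make the sheath proteins MBP, MAG, MOG and their companions in large amounts. In the cortex myelinated axons run most densely in the deep layers and in the white matter below them.

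The animals were adult tree shrews (Tupaia belangeri), 3 females (animals 1, 3 and 4) and 3 males (animals 1, 4 and 5), and the only group labels were sex and tissue. No agent or allele was named in the labels for any animal. Polyadenylated RNA of each PFC was sequenced as 1 library, so a group is 3 animals and an error is the spread between animals. In the sample table of the study the males are all older than the females, and the effects of sex and age cannot be told apart. A permutation test of 3 against 3 animals cannot give a p below 0.1.

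The symbols without a row were 6: the sheath protein MOBP, the nucleotide phosphodiesterase CNP, the galactolipid enzyme UGT8, the precursor proteoglycan CSPG4, the premyelinating receptor GPR17 and the small heat shock protein CRYAB. They carry no value here, which says nothing about their RNA. The annotation does list a copy named CSPG4li1, at chr22:32711459-32750517 on the TS_3.0 assembly, with 11.4, 12.5 and 9.28 TPM in females 1, 3 and 4 and 5.47, 16.1 and 10.8 TPM in males 1, 4 and 5. TPM, the unit of the tables, is a share of the transcripts of a library after division by transcript length, and the same order of animals is used for every set of 6 values that follows. The CSPG4li1 values of the males enclosed those of the females.

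The row named MBP needs care, because myelin basic protein is among the most abundant messages of myelin. That row was a locus of 893 bp on the plus strand at chr12:15139909-15140801. It lay wholly inside MBPli1, a minus-strand locus of 104757 bp at chr12:15107758-15212514. The MBP row held 9.79, 13.7 and 13.1 TPM in the females and 13.6, 9.77 and 7.07 TPM in the males. MBPli1 held 2780, 2570 and 2210 TPM in the females and 1190, 726 and 255 TPM in the males, a mean above 99.9% of the genes tested. The MBPli1 values of the sexes did not overlap, whereas those of the MBP row did. The library protocol made its second cDNA strand with plain dNTPs, which does not mark strand, so reads of the MBP row and of the locus around it cannot be told apart by strand. MBPli1 is therefore given beside MBP, as a copy chosen after its values were seen, and it is not counted among the 32.

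**Figure D1:**
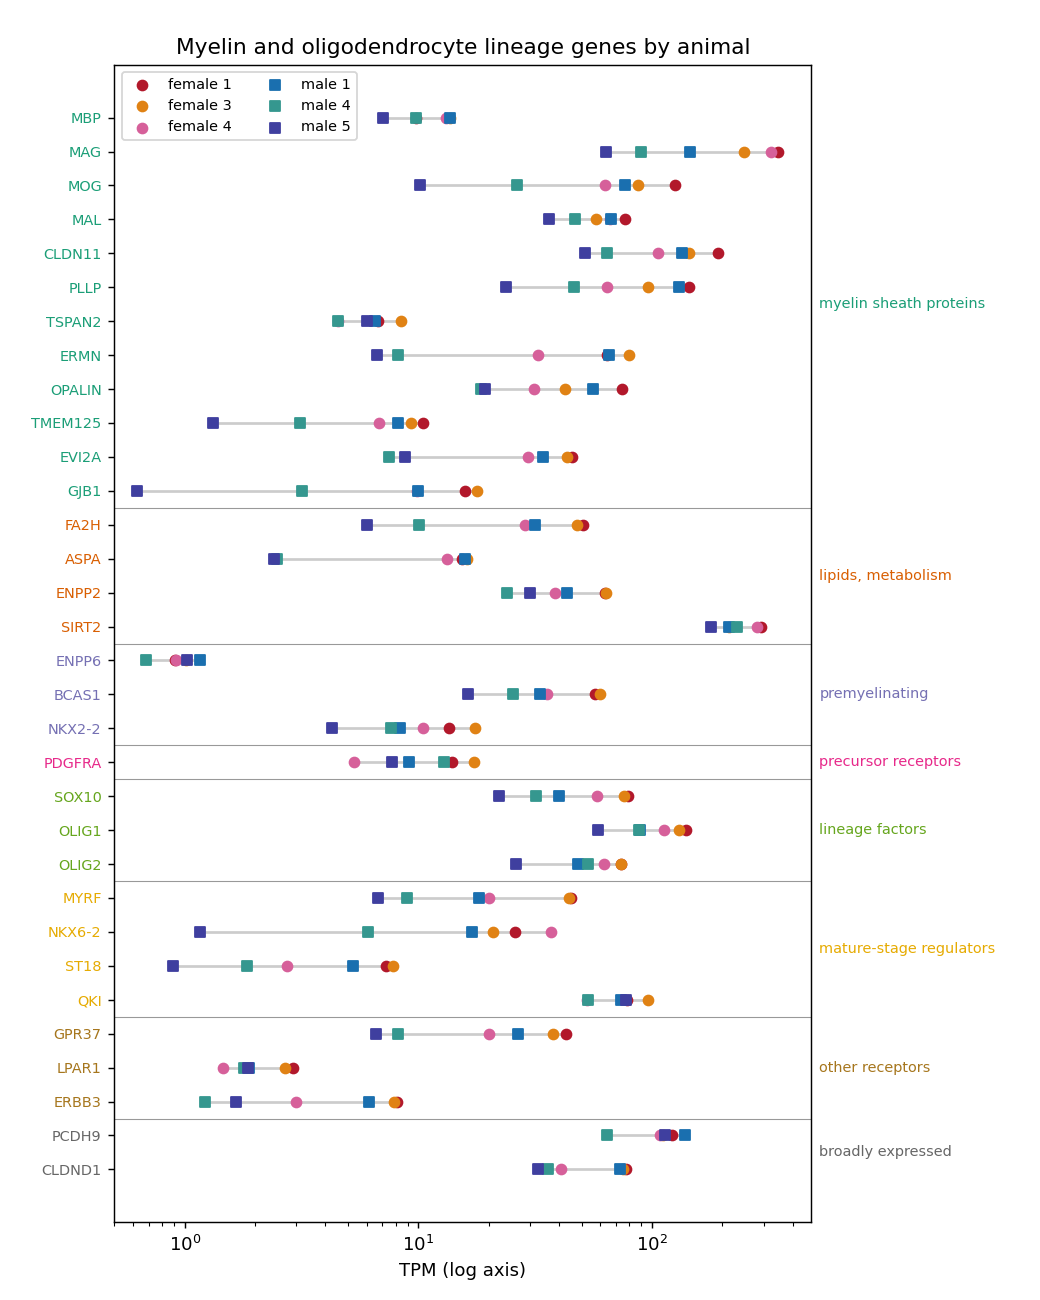
TPM of the 32 genes on a log axis, one row per gene ordered by role, with circles for the 3 females and squares for the 3 males; points at nearly the same value overlap. Male 4 and male 5 (green and dark blue squares) lie at the left in 24 rows, while male 1 (blue square) often lies among the females.

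All 32 genes were above the filter of 0.1 TPM in each of the 6 animals. Their mean levels ran from 0.950 TPM (ENPP6) to 235 TPM (SIRT2), with a median of 33.5 TPM against 2.41 TPM over all genes tested. Of the 32 means, 31 were at least 1 TPM, 25 at least 10 TPM and 5 at least 100 TPM. In the median the genes also varied more between animals: the standard deviation of log2(TPM + 1) over the 6 animals was 0.71, against 0.49 over all genes tested. The highest animal held a median of 3.85 times the TPM of the lowest. All genes tested lie at a lower level, where log2(TPM + 1) understates change. Some members, among them SIRT2, LPAR1 and ENPP6, varied less than most genes.

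The mean of log2(TPM + 1) was higher in females for 32 of 32 genes, where 46.9% of all genes tested had a higher mean in females, and under median-ratio scaling of the 29 on chromosomes only ENPP6 turned (-0.0042). The differences ran from 0.0021 (ENPP6) to 2.12 (NKX6-2), with a median of 0.92 against -0.03 over all genes tested. None of these differences passed the limma test used here. The count-based test of the study called many more genes of these animals at the same adjusted threshold, so this result holds for the limma test only. In the limma fit over 28740 genes on the chromosomes, 0 of the 29 members placed there had a Benjamini-Hochberg adjusted p under 0.1, where 5 genes of the whole table did (0.0174%), and the lowest adjusted p among members was 0.786. At an unadjusted limma p under 0.05, 15 of the 29 were higher in females against 2.4% of all genes, and none were higher in males (5.01% of all genes in either direction). PDGFRA, GJB1 and FA2H lie on unplaced contigs and were read from a second limma fit over 30238 genes, where 0 of the 32 passed (0.0165% of genes) and 17 had an unadjusted p under 0.05, against 2.45% of all genes. The count of 15 moved with the animals in the fit: it was 7 without female 1, 7 without female 3, 14 without female 4, 22 without male 1, 8 without male 4 and 6 without male 5. The median difference of the 29 members, 0.90 with all animals, was then 0.72, 0.79, 1.12, 1.25, 0.80 and 0.62 in the same order. In bulk tissue fewer cells of a type and less RNA per cell cannot be told apart.

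**Figure D2:**
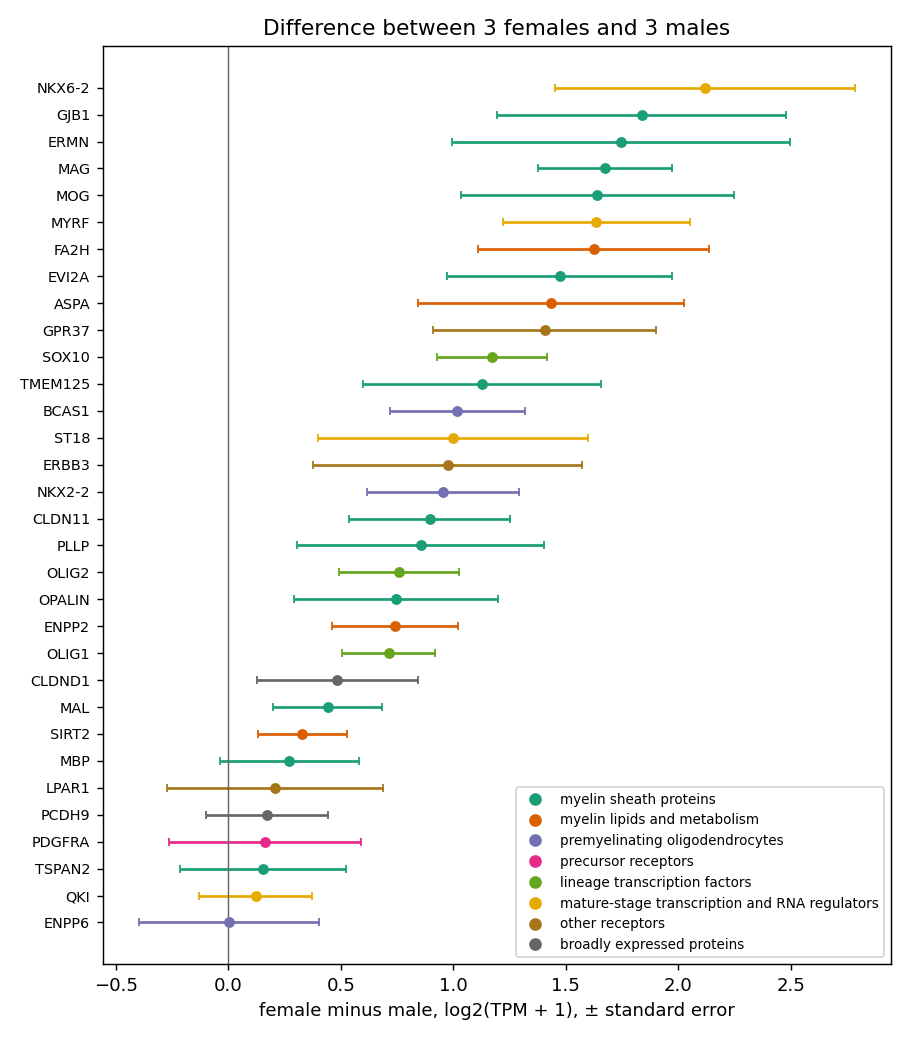
Female minus male difference in log2(TPM + 1) of each gene, with the standard error from limma (3 females, 3 males), coloured by role and ordered by size. Every point lies at or above 0, from 0.0021 (ENPP6, -0.0042 under median-ratio scaling) to 2.12 (NKX6-2), and no gene passed an adjusted p of 0.1.

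In 8 of the 32 genes every female lay above every male, against 4.92% of all genes, and in 0 genes the reverse held (4.93%). Those 8 were the lineage factors OLIG1, OLIG2 and SOX10, the regulators MYRF and NKX6-2, the premyelinating genes BCAS1 and NKX2-2, and a single sheath gene, MAG. The males were not alike. Male 5 was the lowest animal for 22 genes (14.3% of all genes had their lowest value there), male 4 for 7 and female 4 for 3. Male 4 and male 5 were together the lowest pair for 24 genes, against 6.34% of all genes. Female 1 was the highest animal for 18 genes, female 3 for 11, male 1 for 2 and female 4 for 1. The plot of TPM by animal shows male 1 inside the female range for most sheath genes and below it for the 8 genes named above.

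Male 4 and male 5 were not the lowest pair for the precursor receptor PDGFRA, through which growth factor drives precursor division. They were for 11 of the 12 sheath genes with a row. PDGFRA held 13.9, 17.3 and 5.30 TPM in the females and 9.16, 12.9 and 7.68 TPM in the males. Female 4 was the lowest animal and male 4 lay close to female 1, so the sexes overlapped fully. The difference was 0.16 in log2 (SE 0.43, limma adjusted p = 0.979). The sheath gene TSPAN2 had a difference as small (0.16, SE 0.37), and PDGFRA was not tested against the myelin genes.

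The premyelinating genes split. ENPP6, a choline phosphodiesterase of newly forming oligodendrocytes, was the lowest member, with 0.906, 1.01 and 0.919 TPM in the females and 1.16, 0.680 and 1.02 TPM in the males. Its values overlapped between the sexes, and its linear means were 0.946 TPM in females and 0.954 TPM in males. BCAS1, a protein of oligodendrocytes that begin to myelinate, held 56.9, 59.7 and 35.6 TPM in the females and 33.1, 25.3 and 16.3 TPM in the males. The sexes did not overlap, although female 4 and male 1 were close (difference 1.02 in log2, SE 0.30, limma adjusted p = 0.927). NKX2-2, a homeodomain factor that promotes differentiation of precursors, held 13.5, 17.5 and 10.5 TPM in the females and 8.35, 7.60 and 4.27 TPM in the males, again without overlap.

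The 3 lineage factors, present from precursor to mature cell, had no overlap between the sexes. SOX10, which activates myelin genes together with MYRF, held 78.6, 75.7 and 58.0 TPM in the females and 40.0, 31.9 and 22.2 TPM in the males. This was 70.8 ± 11.1 against 31.4 ± 8.93 TPM (mean ± SD, n = 3 each), a log2 difference of 1.17 (SE 0.24, limma adjusted p = 0.927). OLIG1, a basic helix-loop-helix factor at chr1:81876612-81882789, held 140, 130 and 112 TPM in the females and 88.7, 87.7 and 58.8 TPM in the males. Its neighbour OLIG2, at chr1:81835058-81838441, which specifies the lineage, held 73.7, 73.4 and 62.2 TPM in the females and 48.1, 53.1 and 26.2 TPM in the males. For OLIG1 and OLIG2 male 1 and male 4 were alike and male 5 was lowest. The ratio of OLIG1 to OLIG2 TPM stayed between 1.65 and 2.25 in the 6 animals.

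Among the regulators of the mature stage, 2 of 4 had an unadjusted limma p under 0.05, both higher in females, against 2.4% of all genes. MYRF, the membrane-bound factor that switches on sheath genes, held 45, 44.2 and 20.1 TPM in the females and 18.1, 8.93 and 6.71 TPM in the males. Female 4 lay close to male 1, and the difference was 1.64 (log2, SE 0.42). NKX6-2, a homeobox factor of mature oligodendrocytes, held 26, 20.9 and 36.9 TPM in the females and 17.0, 6.06 and 1.16 TPM in the males. It was the only member highest in female 4, and its 31.9-fold range over the animals was the widest of the 32. ST18, a zinc finger factor, held 7.24, 7.75 and 2.74 TPM in the females and 5.27, 1.85 and 0.894 TPM in the males, with overlap. QKI, an RNA-binding protein that controls splicing and transport of myelin messages and is also made by astrocytes, held 77.8, 96.0 and 52.7 TPM in the females and 73.7, 53.4 and 77.5 TPM in the males. QKI was as high in male 5 as in female 1.

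Of the 12 sheath proteins with a row, 6 had an unadjusted limma p under 0.05, all higher in females, against 2.45% of all genes. For 11 of the 12, male 4 and male 5 were the lowest pair, against 6.34% of all genes. MAG, the adhesion protein that holds the innermost wrap to the axon, was the highest of the 12. It held 346, 247 and 323 TPM in the females and 146, 89.3 and 63.4 TPM in the males, or 305 ± 51.9 against 99.4 ± 42 TPM (mean ± SD, n = 3 each). The sexes did not overlap (log2 difference 1.68, SE 0.30, limma adjusted p = 0.786). MOG, on the outer face of the sheath, held 126, 87.3 and 63.0 TPM in the females and 76.4, 26.4 and 10.2 TPM in the males. Male 1 lay between female 3 and female 4, so the groups overlapped (difference 1.64, SE 0.61).

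In the other 4 sheath genes with such a p, male 1 also lay within the female range. ERMN, a cytoskeletal protein of late myelination, held 64.4, 79.5 and 32.5 TPM in the females and 65.6, 8.20 and 6.63 TPM in the males. CLDN11, the claudin of the tight junctions between wraps, held 192, 144 and 106 TPM in the females and 134, 64.0 and 51.9 TPM in the males. Male 1 was above female 4 for ERMN and CLDN11. EVI2A, a transmembrane protein, held 45.4, 43.2 and 29.5 TPM in the females and 34.2, 7.46 and 8.79 TPM in the males. Its locus lay wholly within that of NF1 on the opposite strand, which had a mean of 66.4 TPM. GJB1, the connexin of gap junctions within the sheath, held 15.8, 17.8 and 9.90 TPM in the females and 10, 3.19 and 0.623 TPM in the males. Female 4 and male 1 were nearly equal, and the range over the animals was 28.5-fold.

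The remaining 6 sheath genes, MBP among them, had no unadjusted limma p under 0.05. OPALIN, a membrane glycoprotein, held 74.5, 42.6 and 31.3 TPM in the females and 55.9, 18.6 and 19.3 TPM in the males. PLLP, a myelin proteolipid, held 144, 95.8 and 64.2 TPM in the females and 130, 46.5 and 23.8 TPM in the males. In both, male 1 was second only to female 1. TMEM125, a transmembrane protein, ran from 1.32 TPM in male 5 to 10.5 TPM in female 1. MAL, a proteolipid that sorts membrane to the sheath, ran only from 36.3 to 76.7 TPM. TSPAN2, a tetraspanin, was the lowest sheath gene on the mean and held 6.73, 8.46 and 4.54 TPM in the females and 6.55, 4.52 and 6.03 TPM in the males, without an order by sex.

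The genes of myelin lipids and metabolism held the highest member and a steep one. SIRT2, a deacetylase abundant in myelin, was the highest member, with 292, 213 and 282 TPM in the females and 214, 231 and 179 TPM in the males. Its range was only 1.64-fold, and the sexes overlapped. ASPA, which releases acetate from N-acetylaspartate for lipid synthesis, held 15.4, 16.1 and 13.2 TPM in the females and 15.9, 2.49 and 2.40 TPM in the males. The 3 females and male 1 were alike for ASPA, and male 4 and male 5 stood apart. FA2H, which makes the hydroxylated fatty acids of galactolipids, held 50.6, 47.6 and 28.7 TPM in the females and 31.6, 10.1 and 6.02 TPM in the males. ENPP2, the enzyme that makes lysophosphatidic acid, held 62.7, 63.5 and 38.3 TPM in the females and 43.4, 24 and 30 TPM in the males. For FA2H and ENPP2, male 1 lay just above female 4.

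Among the other receptors, GPR37, an orphan receptor of maturing oligodendrocytes, held 43.0, 37.8 and 20.0 TPM in the females and 26.7, 8.18 and 6.57 TPM in the males. ERBB3, a neuregulin receptor subunit, ran from 1.22 TPM in male 4 to 8.08 TPM in female 1. LPAR1, a receptor for lysophosphatidic acid, was the lowest of the 3 on the mean and held 2.91, 2.69 and 1.46 TPM in the females and 1.89, 1.79 and 1.86 TPM in the males. Only GPR37 had an unadjusted limma p under 0.05 (0.0208), and all 3 overlapped between the sexes. Of the genes with broader expression, PCDH9, a protocadherin of neurons and glia, held 122, 111 and 108 TPM in the females and 139, 64.1 and 114 TPM in the males, with male 1 highest. CLDND1, a claudin-domain membrane protein, held 77.6, 75.3 and 40.6 TPM in the females and 73.2, 35.7 and 32.4 TPM in the males.

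To set precursor against mature genes within each animal, the mean log2(TPM + 1) was taken over 2 lists and over the lineage factors. The mature list had a row for 17 of 20 genes and gave 5.54, 5.39 and 4.97 for females 1, 3 and 4, then 5.13, 3.83 and 3.35 for males 1, 4 and 5. The precursor list had a row for 4 of 6 (PDGFRA, ENPP6, BCAS1 and NKX2-2) and gave 3.64, 3.83 and 3.08 for females, then 3.19, 3.09 and 2.66 for males. The 3 lineage factors gave 6.56, 6.50 and 6.23 for females, then 5.82, 5.76 and 5.07 for males. The mature list spanned 2.19 log2 units from female 1 to male 5, against 1.17 for the precursor list and 1.49 for the lineage factors. ENPP6, near 1 TPM in every animal, had an SD of only 0.12 in log2(TPM + 1), which narrows the span of the precursor list. In the mature list male 1 was above female 4, while for the lineage factors all 3 males were below all 3 females.

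The mature mean exceeded the precursor mean by 1.91, 1.56 and 1.90 log2 units in females 1, 3 and 4, by 1.93 in male 1, by 0.74 in male 4 and by 0.69 in male 5. Male 4 and male 5 thus had a smaller gap than the other 4 animals. The difference between the sexes in this gap was 0.67 with all animals, 1.07 without male 1 and 0.45 without male 5. These are descriptions of lists chosen with the data known, and no test was made on them. BCAS1 and NKX2-2 lay below every female in all 3 males, as the lineage factors did, so the precursor mean mixes their pattern with that of PDGFRA and ENPP6.

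**Figure D3:**
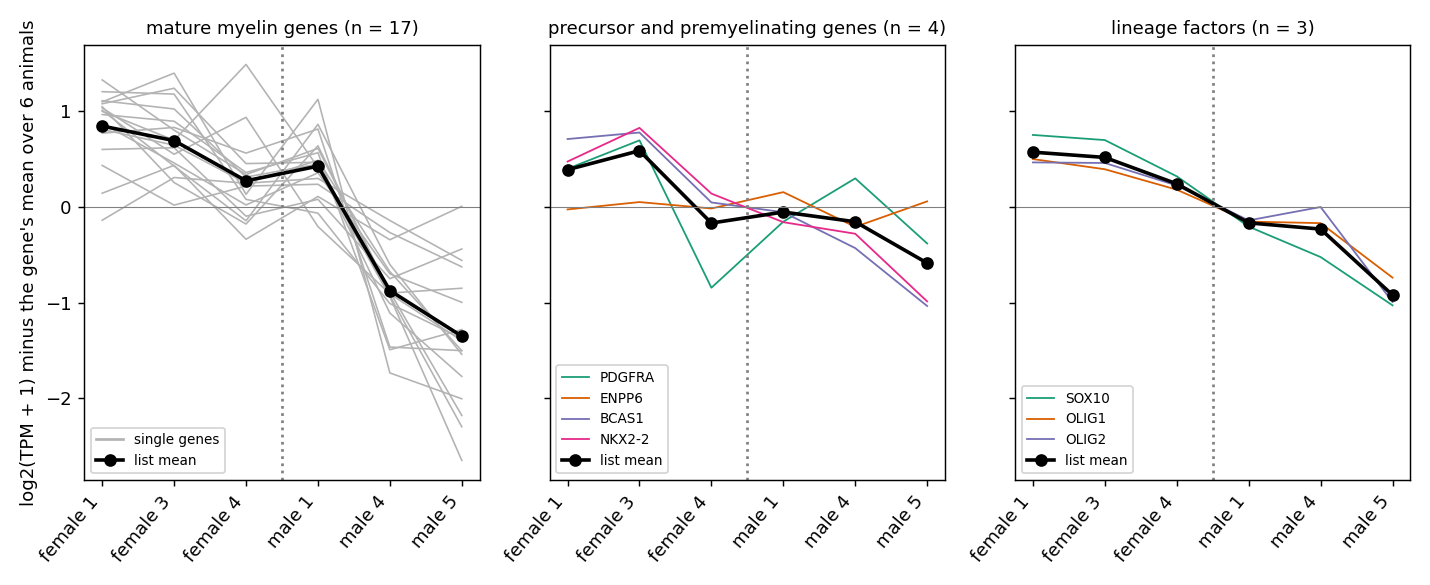
Level of each gene in each animal relative to its own mean over the 6 animals (log2 scale), for the 17 mature genes, the 4 precursor and premyelinating genes and the 3 lineage factors; the black line is the list mean and the dotted line separates females from males. The mean of the mature genes lies within the female range in male 1 and below it in male 4 and male 5, although NKX6-2 is below the females in all 3 males. Lineage factors are lower in all 3 males, and PDGFRA and ENPP6 follow neither shape.

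Ratios of TPM between genes of the same library showed the same split. ERMN was 4.65, 4.59 and 6.13 times PDGFRA in the females and 7.16 times in male 1, but 0.638 and 0.863 times in male 4 and male 5. MOG was 1.71, 1.19 and 1.01 times OLIG2 in the females and 1.59 times in male 1, against 0.496 and 0.389 times in male 4 and male 5. MBPli1 was 37.7, 35.1 and 35.5 times OLIG2 in the females, falling to 24.8, 13.7 and 9.73 times among males. For MBPli1 over OLIG2 male 1 was below the females, unlike MOG and ERMN, where it was within or above their range.

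Co-variation was measured over the 6 animals, with MBP as the reference gene. The median Pearson r of the other 31 members with the MBP row was 0.64, and 0 of the 31 had an exact permutation p under 0.05, where 2.03% of all genes had such a p with a positive r. Without female 3 and male 5, the animals farthest from the median of that row, the median r fell to 0.142, and without male 5 alone it was 0.274. With 1 animal left out at a time the median r ran from 0.274 to 0.878, and the members with such a p numbered 0 to 13. The row of 893 bp was thus a reference that moved with the animals included. With MBPli1 as the reference, a choice made after the values were seen, the median r of the 32 members was 0.87, and 18 had a positive r with an exact p under 0.05, against 2.71% of all genes. With MAG as the reference, also chosen afterwards, 13 of the other 31 did, against 2.59%, with a median r of 0.86. No member passed the adjustment over all genes in any of these (lowest adjusted p 0.763 with MBP, 0.724 with MBPli1 and 0.720 with MAG), and 6 animals cannot give an exact p below 0.00278.

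Correlations without male 4 and male 5 differed between genes. Without these 2 animals, the farthest from the median of MBPli1 and of MAG, the median r of the members was 0.445 with MBPli1 and 0.185 with MAG. Leaving out the farthest animals narrows the range of the reference gene, which by itself can lower r. ERMN correlated with MBPli1 at r = 0.859 (exact permutation p = 0.0444; rho = 0.714, exact p = 0.136) over 6 animals and at r = -0.0092 over the remaining 4. Over the 4 animals left, male 1 lay far below the females in MBPli1 and so largely sets r, and CSPG4li1, at r = -0.0818 over 6 animals, reached 0.978 there. SOX10 correlated with MBPli1 at r = 0.975 and rho = 1 (exact permutation p = 0.00278 for each, the smallest possible), and r was 0.978 without the pair. OLIG1 gave r = 0.976 and rho = 1 (exact permutation p = 0.00278 for each), with r = 0.976 without the pair. OLIG2 gave r = 0.956 (exact permutation p = 0.0194) and rho = 0.943 (exact p = 0.0167), with r = 0.983 without the pair. MAG gave r = 0.959 (exact permutation p = 0.00833) and rho = 0.943 (exact p = 0.0167), with r = 0.898 without the pair. MYRF ranked the animals exactly as MBPli1 did (rho = 1, exact permutation p = 0.00278), with r = 0.923 (exact p = 0.00278) and 0.807 without the pair. For PDGFRA r with MBPli1 was 0.301 (exact permutation p = 0.542) and rho 0.543 (exact p = 0.297). QKI gave r = 0.124 (exact permutation p = 0.817) and rho = 0.429 (exact p = 0.419), and ENPP6 r = 0.0335 (exact p = 0.856) and rho = -0.257 (exact p = 0.658). The adjusted p was between 0.724 and 0.968 for each of the members named here.

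**Figure D4:**
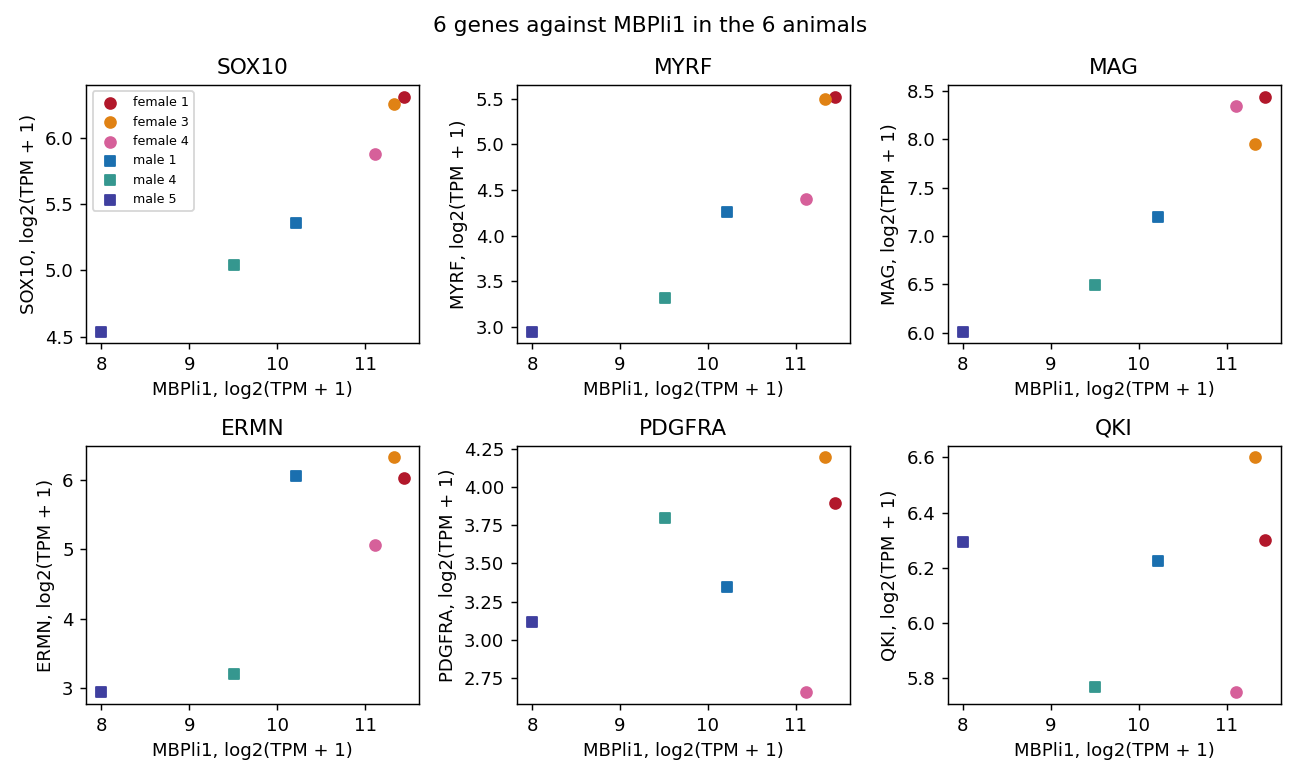
log2(TPM + 1) of SOX10, MYRF, MAG, ERMN, PDGFRA and QKI against MBPli1, one point per animal (circles females, squares males). SOX10 and MYRF rise with MBPli1 through all 6 animals, ERMN separates male 4 and male 5 from the other 4, and PDGFRA and QKI show no common order.

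Pairs of members were compared in the same way, as a description. The median r was 0.89 over the 136 pairs within the mature list, 0.85 between mature genes and lineage factors (51 pairs), 0.58 between mature and precursor genes (68 pairs) and 0.32 within the precursor list (6 pairs). Over all 496 pairs of members the median was 0.79, and over all pairs of genes tested it was 0.01. The 6 libraries are shared by every pair, so these values are not independent. Within the precursor list BCAS1 and NKX2-2 gave r = 0.98, whereas the lowest pair of that list was at r = -0.19. PDGFRA correlated with MAG at r = 0.104. Some pairs outside the main block were close as well, picked here after their values were seen: TSPAN2 with QKI at r = 0.980, ENPP6 with PCDH9 at r = 0.917 and PDGFRA with LPAR1 at r = 0.829. The lowest of all 496 pairs was SIRT2 with QKI, at r = -0.396.

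**Figure D5:**
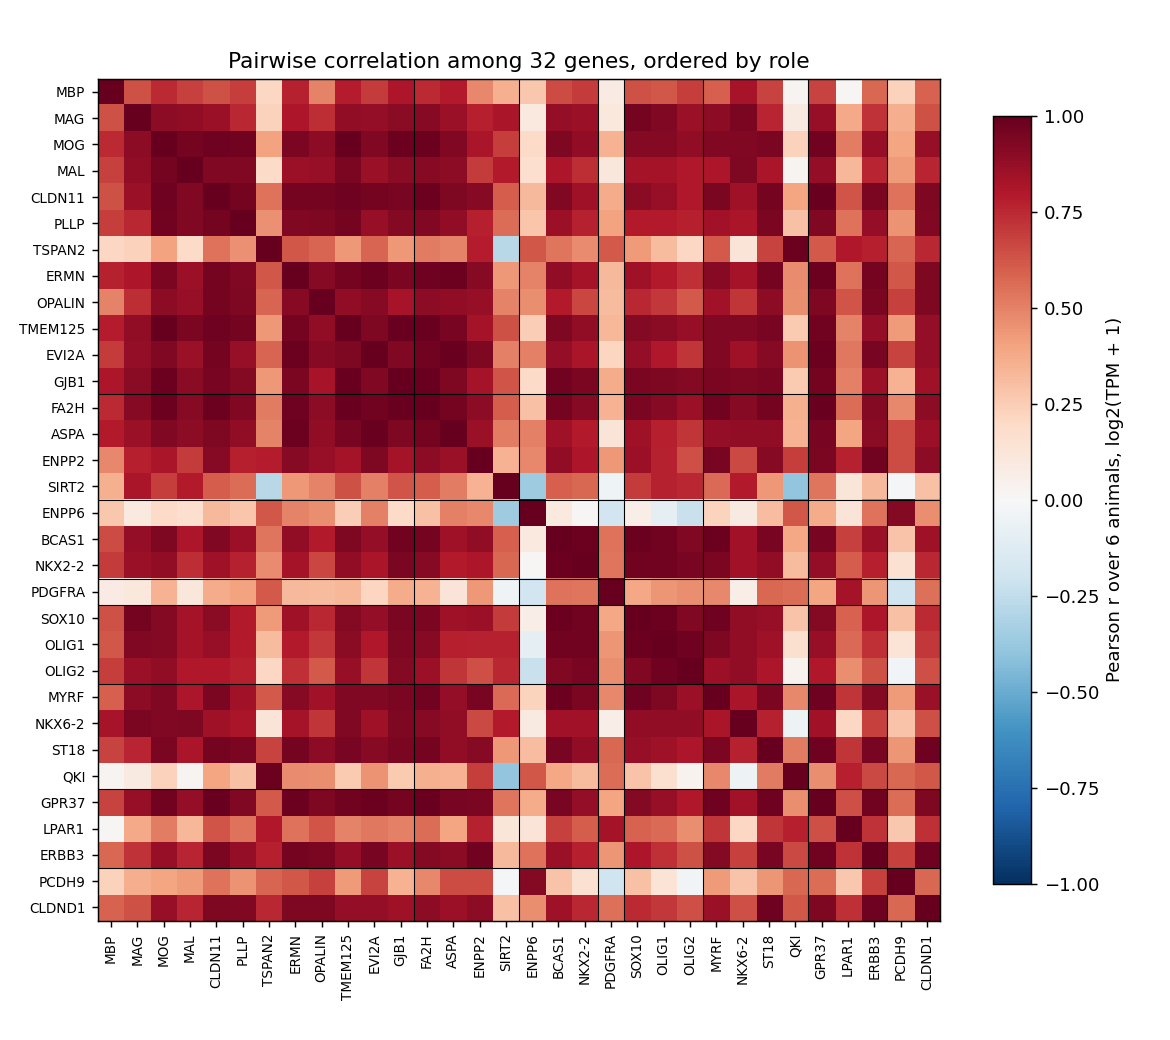
Pearson r of log2(TPM + 1) over the 6 animals for every pair of the 32 genes, ordered by role with lines between roles, from blue (-1) through white (0) to red (1). A broad red block joins sheath, lipid, lineage and mature-stage genes with BCAS1 and NKX2-2, and pale bands mark TSPAN2, SIRT2, ENPP6, PDGFRA, QKI, LPAR1 and PCDH9.

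Other genes of the same biology were read from lists set up beside the members. Of 30 further mature oligodendrocyte genes 19 had a row and 18 were tested, and 0 passed the adjusted limma p of 0.1 (0.0174% of all genes). At an unadjusted limma p under 0.05, 8 were higher in females, against 2.4% of all genes, whereas SEPTIN8 was higher in males (5.01% of all genes in either direction). These genes share the 6 libraries, so they are not independent of each other or of the members. Their summed level was 1440, 1320 and 1190 TPM in the females and 1150, 716 and 603 TPM in the males, so male 1 lay close to female 4 here too. The 3 highest were APOD, a lipid-binding lipoprotein, SEPTIN8, a cytoskeletal protein, and PLEKHB1, a pleckstrin-homology protein. APOD held 261, 340 and 218 TPM in the females and 276, 158 and 138 TPM in the males. SEPTIN8 ran the other way, with 136, 146 and 167 TPM in the females and 195, 209 and 214 TPM in the males, and no overlap. PLEKHB1 held 184, 166 and 215 TPM in the females and 160, 47.5 and 9.63 TPM in the males.

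Of 14 further precursor genes 10 were tested, 0 had an unadjusted limma p under 0.05 in either direction (5.01% of all genes), and 4 were higher in females. Their sum was 199, 206 and 213 TPM in the females and 201, 152 and 246 TPM in the males. It was highest in male 5, where LUZP2 and PTPRZ1 held 91.3 and 68 TPM of it. The precursor list of the members went the other way, with its lowest mean log2(TPM + 1) in male 5 (2.66). PTPRZ1, a receptor phosphatase and the highest of the further precursor genes, ran from 44.3 TPM in male 4 to 116 TPM in female 4. LHFPL3, named after its values were seen, had the shape of the mature genes, with 21.1, 27.7 and 13.8 TPM in the females and 21.2, 8.96 and 11 TPM in the males. LUZP2, a leucine zipper protein, was highest in male 5 (91.3 TPM), and TNR, an extracellular matrix protein, ran from 14.9 to 26.1 TPM. Of 8 tested genes of axon contact and myelin inhibition 0 passed, and CNTN2 and JAM3 had an unadjusted p under 0.05, both higher in females (2.4% of all genes). The 9 genes of this list with a row summed to between 1910 and 2550 TPM. Highest were RTN4, whose protein Nogo inhibits axon growth, its receptor RTN4R, on a contig, and CNTNAP1, of the junction beside the node. Of 9 other lineage regulators tested 0 passed and 1 (ID4, an inhibitor of differentiation, higher in females) had an unadjusted p under 0.05, against 2.4% of all genes. SOX8, on a contig and read from the second fit, was also higher in females at such a p (log2 difference 1.36, SE 0.53). ID4, PRDM8 and SOX8 were the highest, with means of 71.4, 58.9 and 42.6 TPM. Of 5 growth factors tested, 0 passed and 0 had an unadjusted p under 0.05, and the highest were PDGFA, a ligand of PDGFRA, with 29.3 to 42.5 TPM, FGF2 and CNTF.

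Markers of other cells were summed in each animal beside these results. Neuron markers summed to 6410 to 8490 TPM, astrocyte markers to 1430 to 2210 TPM, microglial markers to 162 to 304 TPM, and endothelial markers to 325 to 491 TPM, with 0 genes of the 4 lists passing the adjusted limma p. At an unadjusted limma p under 0.05, the astrocyte enzyme ALDH1L1 and the endothelial claudin CLDN5 were higher in females, while their lists were mixed: the mean was higher in females for 2 of 6 astrocyte markers (median difference -0.08) and 3 of 5 endothelial markers (median 0.25). ALDH1L1 held 29.1, 27.3 and 50.8 TPM in the females and 18.9, 27.4 and 7.12 TPM in the males, overlapping between the sexes and lowest in male 5 (log2 difference 1.09, SE 0.45). CLDN5 held 45.2, 33.5 and 60.7 TPM in the females and 23.4, 28.9 and 23.2 TPM in the males, without overlap (log2 difference 0.83, SE 0.24). Choroid plexus markers summed to at most 12.9 TPM, and 4 of 5 had a higher mean in females (median difference 0.57), AQP1, a water channel, without overlap. The remaining one, the folate receptor FOLR1, had a higher level in the males with a limma p under 0.05 before adjustment (log2 difference -1.73), with 1.21, 0.0726 and 0.858 TPM in the females and 6.48, 1.16 and 8.86 TPM in the males. Markers of striatal projection neurons (3 with a row) summed to 116, 119 and 25.3 TPM in the females and 110, 26.4 and 26.2 TPM in the males. The sum was low in male 4 and male 5, as the mature genes were, but also in female 4. RGS9 and PDE10A carried this shape, whereas DRD1, a dopamine receptor, held 5.05, 7.06 and 1.20 TPM in the females and 4.02, 4.83 and 2.70 TPM in the males. RGS9, a signalling regulator of the striatum, held 48.0, 43.7 and 1.52 TPM in the females and 54.6, 0.355 and 0.392 TPM in the males. Blood markers summed to 1270, 2540 and 1470 TPM in the females and 62.7, 73.8 and 101 TPM in the males, and the globin genes HBQ1 and HBG passed the adjusted limma p (0.00668 each). HBQ1 held 723, 1250 and 825 TPM in the females and 22.3, 47.2 and 54.4 TPM in the males, and HBG 549, 1290 and 643 TPM against 40.3, 26.5 and 46 TPM. The part of tissue composition and blood in the differences of the members was not tested.

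The libraries differed in other respects too. Genes at 1 TPM or more numbered 19899, 20505 and 21601 in females 1, 3 and 4, then 24009 in male 1, 20785 in male 4 and 27108 in male 5. Loci without a strand held 2.30%, 2.55% and 3.33% of the TPM of the females, and for males 1, 4 and 5 the share was 5.16%, 2.67% and 7.88%, so male 5, the animal with the lowest myelin values, had the highest share and the most genes at 1 TPM or more. The part of these values in the result was not tested. Read totals were not used here, since the tables analysed give TPM, FPKM and coverage without counts. Of the 32 genes, 17 were overlapped by another expressed locus on the opposite strand. The overlapping locus was above 10 TPM for MBP, EVI2A, MYRF (an unnamed locus with a mean of 110 TPM), NKX6-2 (INPP5A, 50.7 TPM), PLLP (ARL2BPli1, 190 TPM), SIRT2 (NFKBIB, 52.8 TPM), ENPP2 (COL14A1, 14.3 TPM) and ENPP6 (an unnamed locus, 13.3 TPM). Without strand in the libraries, reads in the shared bases of these genes are of uncertain origin.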

How the data were processed

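The authors aligned polyA RNA-seq reads with HISAT2 2.2.1 and assembled and quantified them with StringTie 2.2.1 (versions from the submitters' processing notes) on the TS_3.0 genome. The deposited tables hold TPM, FPKM and coverage per locus. TPM of rows of one gene ID and reference were summed. FPKM entered 1 alternative and coverage was not used. Tested were genes on chromosomes 1 to 30 and X that reached 0.1 TPM in 3 or more animals, without the male-only segments of X and chromosome 26. The female minus male difference of log2(TPM + 1) was fitted with limma 3.58.1 (R 4.3.3, mean-variance trend, no covariate), with Benjamini-Hochberg adjustment over all genes and a threshold of 0.1. On this scale the change of low genes is understated. The fit was tested on simulated data. Correlations used exact two-sided permutation. Members, lists and roles were chosen with earlier results of these data known. Given in every animal were MBP, PDGFRA, OLIG1, OLIG2, SOX10, MYRF, the highest and lowest member of each role, those at an unadjusted p under 0.05, and some further members added after their values were seen. Of other lists, called genes or the 3 highest were named, with values, a range or a mean where given, and a few others after their values were seen. Labels do not say whether the animals were related. Alternatives covered pseudocount, filter, scaling, FPKM, block, trend, adjustment, copies, strandless loci, contigs, and each animal left out.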

Additional observations from a re-analysis of the deposited data

How the results depend on the processing

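Under all 20 alternatives to the limma fit, 0 members passed the adjusted p. The count of members with an unadjusted p under 0.05, 15 in the reported fit, was 9 without the mean-variance trend and 6 to 22 when each animal was left out. All genes called numbered 5 in the reported fit, 1 without the mean-variance trend and 3 to 7 with an animal left out. Females 1 and 4 share a number with males 1 and 4, but these are different animals. Over all genes tested their deviations from the group means correlated at 0.00098 and 0.0383, which cannot show whether a number marks anything shared. With the animal number as a replicate block, 3 genes of the table and 0 members passed, 8 members had an unadjusted p under 0.05, and the MBP difference was -0.023. Female 3 and male 5 have no partner in that fit, so its differences rest on animals 1 and 4 of each sex. Of 599 recomputed differences over 29 members and MBPli1, 591 kept their direction and their side of the threshold. Alternatives of filter, trend, adjustment and strandless loci leave the difference itself unchanged, so its direction could not turn there. The 8 that turned were MBP with the replicate block, ENPP6 under median-ratio scaling (-0.0042), and 6 with an animal left out. Those 6 were TSPAN2 (-0.022), ENPP6 (-0.023) and QKI (-0.071) without female 3, and ENPP6 (-0.10), QKI (-0.043) and PCDH9 (-0.15) without male 4. Over the 6 such fits these 4 ran up to 0.36 (TSPAN2), 0.078 (ENPP6), 0.36 (QKI) and 0.40 (PCDH9). Members correlated with MBP at an exact p under 0.05 numbered 18 with li copies added, 18 with MBPli1 and 13 with MAG as the reference gene, and 0 to 13 with an animal left out; the median r with MBP was then 0.274 to 0.878. The median r between mature genes and lineage factors was 0.664 to 0.926 with an animal left out. The cause of these shifts was not tested. Contig genes were not refitted without single animals. With 3 animals a group, precision is limited by the spread between animals, and read totals were not used here.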

Other observations

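Some genes outside the 32 members had a course over the animals like that of MBPli1; they were picked from the companion lists after their values were seen, so their closeness is a description. HAPLN2, a link protein of the matrix at nodes of central axons, held 221, 176 and 166 TPM in females 1, 3 and 4 and 84.8, 53.2 and 16.9 TPM in males 1, 4 and 5, with no overlap (log2 difference 2.10, SE 0.49, limma adjusted p = 0.927). NINJ2, an adhesion protein of glia, held 62.6, 38.0 and 38.7 TPM in the females and 24.2, 12.5 and 3.22 TPM in the males. SOX8, a relative of SOX10 on an unplaced contig, held 63.6, 64.1 and 47.2 TPM in the females and 41.1, 32 and 7.53 TPM in the males. RNASE1, a secreted ribonuclease, showed the other shape, with 103, 83.4 and 65.4 TPM in the females, 126 TPM in male 1, and 20.6 and 18.2 TPM in male 4 and male 5.

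BCAS1li1, a locus on the strand opposite to BCAS1 and overlapping it, held 1.87, 1.53 and 0 TPM in the females and 0.470, 2.09 and 0 TPM in the males, far below BCAS1. LPAR1li1 was listed at 0 in all 6 animals.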
